A study of Mus musculus with 2 samples.

Results

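The genes described here make, carry, sense and degrade retinoic acid: Stra6, Aldh1a2, Aldh1a3, Crabp1, Crabp2, Rara, Rarb, Rarg and Cyp26b1. They were chosen by symbol, through the Ensembl gene ID in the deposited gene tables, and all 9 were found among 43346 Ensembl genes, with 39 listed transcripts. The tissue was midbrain of B6NCrl mouse embryos, a C57BL/6 substrain, collected at 15.5 days of gestation, and all samples share that strain, age and tissue. Total RNA was sequenced in 2 libraries, replicate 1 from a pool of 78 embryos and replicate 2 from another pool of 62, male and female embryos being mixed in each. There was 1 group and no treatment, so the data allow a description of levels in this tissue and a comparison of the pools. Each pool averages many embryos and all cells of the dissected midbrain.

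Retinoic acid is made from vitamin A. Retinol reaches cells on the plasma carrier Rbp4 and can enter through Stra6, retinol dehydrogenases turn it into retinal, and the Aldh1a enzymes turn retinal into retinoic acid. Crabp proteins bind retinoic acid in the cytoplasm, the RAR receptors act on DNA in pairs with RXR receptors, and Cyp26 enzymes break the molecule down. In the developing brain the meninges are a known site of Aldh1a2 expression, and in the hindbrain the pathway is known for patterning and for control of Hox genes.

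The libraries held 38966386 expected counts (estimated reads per gene) in replicate 1 and 40419493 in replicate 2. Midbrain transcription factor genes were at 1 TPM or more in both libraries in 8 of 9 cases, telencephalon markers in 10 of 11, and Hox genes, which mark hindbrain and spinal cord, in 0 of 14. TPM is a length-scaled share of all transcripts, and levels of different genes are compared on that scale only. A gene was called expressed at 1 TPM or more in both libraries. By that rule 8 of the 9 retinoic acid genes were expressed, beside 35.4% of all Ensembl genes. The exception was Aldh1a3. In bulk tissue, fewer cells expressing a gene and less RNA per cell cannot be told apart.

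**Figure D1:**
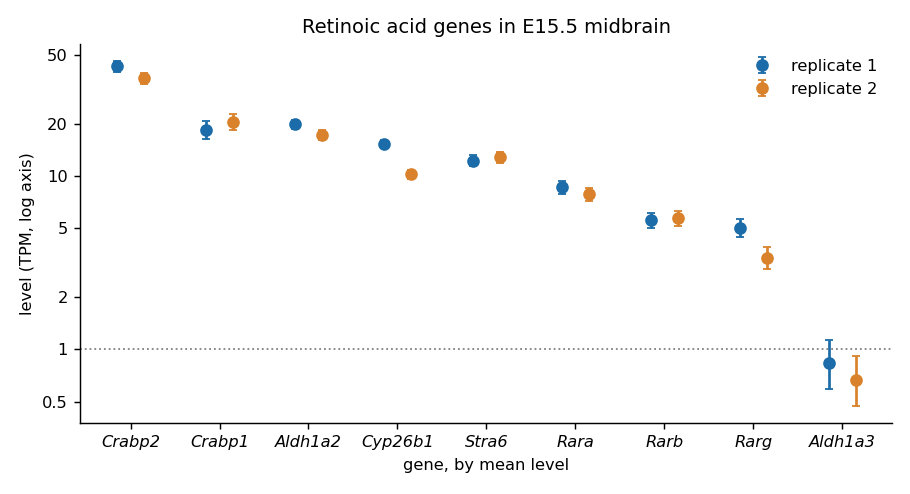
Level of each retinoic acid gene in replicate 1 and replicate 2, in TPM on a log axis, with the threshold of 1 TPM dotted. Bars are 95% Poisson counting intervals of the gene's total count, with transcript shares held fixed. The genes run from Crabp2 with a mean of 39.6 TPM to Aldh1a3 with a mean of 0.75 TPM, the only gene under the threshold in both libraries.

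Stra6 encodes the membrane receptor through which cells take up retinol from Rbp4 (chromosome 9, 58063788 to 58153996, mm10). It stood at 12.3 TPM in replicate 1 and 12.8 TPM in replicate 2 (mean 12.5 ± 0.368, SD, n = 2), from 724 and 774 expected counts. The pools were close, and each library's value lay inside the other's 95% counting interval of 11.4 to 13.2 TPM in replicate 1 and 11.9 to 13.7 TPM in replicate 2. Its ligand gene Rbp4 was lower, at 7.27 and 3.03 TPM. Stra6 had 14 listed transcripts with starts spread along the gene, and transcript Stra6-213 led in both libraries with 60.2% and 48.9% of the gene's TPM. Next came Stra6-202, which starts further upstream, with 29.3% and 34.4%. The posterior SD of the count of Stra6-213, the authors' measure of uncertain read assignment, was 93.9 of 478 counts in replicate 1 and 84.4 of 418 in replicate 2. The split between the leading transcripts is therefore known only roughly.

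The start regions of both transcripts are given because these transcripts differ in where they begin. They are 100 bases before and 30 bases from each RefSeq start site (GRCm38.p6, the mm10 build, plus strand, chr9:58134565-58134694 and chr9:58128988-58129117), with the bases from the start site on in capitals.
Stra6-213: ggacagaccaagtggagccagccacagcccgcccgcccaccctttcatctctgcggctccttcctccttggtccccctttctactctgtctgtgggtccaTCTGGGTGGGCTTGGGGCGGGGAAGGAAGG
Stra6-202: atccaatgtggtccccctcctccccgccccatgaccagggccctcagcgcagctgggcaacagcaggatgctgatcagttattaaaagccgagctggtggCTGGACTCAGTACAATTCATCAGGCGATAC

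Aldh1a2 encodes the retinal dehydrogenase that makes most of the retinoic acid of the early embryo (chromosome 9, 71215789 to 71296243). It stood at 19.9 TPM in replicate 1 and 17.1 TPM in replicate 2 (mean 18.5 ± 1.94, SD, n = 2), from 1004 and 893 counts on a single listed transcript. This placed it above 52.2% of the expressed genes, near the middle of the tissue's range. Meningeal and fibroblast marker genes were present beside it. All 11 of the list were expressed, led by the collagen gene Col3a1, and together they reached 627 TPM in replicate 1 against 532 TPM in replicate 2, with 0 of 11 listed at 0. Their part in the Aldh1a2 level was not tested.

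Aldh1a3, a retinal dehydrogenase known from the eye and the ventral forebrain, was far lower (chromosome 7, 66390890 to 66427517). It stood at 0.83 TPM in replicate 1 and 0.67 TPM in replicate 2, from 38 counts in each library. The counting intervals were 0.587 to 1.14 TPM in replicate 1 and 0.474 to 0.92 TPM in replicate 2, so 1 TPM lay inside the first and outside the second. These intervals hold the transcript shares fixed. With so few reads the transcript shares are loose: Aldh1a3-203 took 69.4% and 50.9% of TPM, while by counts the longer Aldh1a3-201 led with 19.1 against 18.8 counts in replicate 1 and 26.5 against 11.5 in replicate 2. Of the eye marker genes 1 of 7 was expressed, with 0 listed at 0 and a summed level of 4.62 and 3.89 TPM. Of the telencephalon markers 10 of 11 were expressed, with 0 listed at 0 and a summed level of 110 and 98.8 TPM. Their part in the Aldh1a3 level was not tested. Aldh1a1, the third enzyme of the family and a marker of a subset of dopaminergic neurons, stood at 14.1 and 13.3 TPM. Of the family's summed TPM, 57.1% and 55.02% belonged to Aldh1a2, 40.6% and 42.8% to Aldh1a1, and 2.39% and 2.16% to Aldh1a3.

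Crabp2, which binds retinoic acid and is known to deliver it to RAR receptors in the nucleus, had the highest level of the 9 genes (chromosome 3, 87948666 to 87953376). It stood at 42.8 TPM in replicate 1 and 36.5 TPM in replicate 2 (mean 39.6 ± 4.48, SD, n = 2), above 71.1% of the expressed genes. Nearly all of it, 99.7% and 99.4%, was the coding transcript Crabp2-201, and the rest was a transcript annotated as retaining an intron. Crabp1, which binds retinoic acid in the cytoplasm and is linked to its turnover (chromosome 9, 54764748 to 54773110), stood at 18.4 and 20.5 TPM (mean 19.4 ± 1.47, SD, n = 2) from 1 listed transcript. Crabp2 exceeded Crabp1 by 2.33-fold in replicate 1 and 1.78-fold in replicate 2, a log2 difference of 1.03 ± 0.27 (SD, n = 2). That difference exceeded its SD and had the same sign in both libraries, while 2 libraries allow no two-sided sign-flip p below 0.5.

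The 3 RAR receptors are ligand-activated transcription factors. Rara (chromosome 11, 98927818 to 98974942) stood at 8.61 TPM in replicate 1 and 7.85 TPM in replicate 2 (mean 8.23 ± 0.537, SD, n = 2). Rarb (chromosome 14, 16430839 to 16819156) stood at 5.53 and 5.69 TPM (mean 5.61 ± 0.113), and Rarg (chromosome 15, 102234938 to 102257517) at 5.01 and 3.37 TPM (mean 4.19 ± 1.16, each SD, n = 2). Rara was the highest in both libraries. Its share of the family's TPM was 44.96% in replicate 1 and 46.4% in replicate 2, that of Rarb 28.9% and 33.6%, and that of Rarg 26.2% and 19.9%. Rara exceeded Rarb by 0.55 ± 0.12 and Rarg by 1.00 ± 0.31 on the log2 scale, both more than their SD between the libraries. Rarb exceeded Rarg by 0.45 ± 0.43, a difference about the size of its SD, with counting intervals that overlapped in replicate 1 (4.99 to 6.12 TPM for Rarb and 4.42 to 5.65 TPM for Rarg) and did not in replicate 2 (5.15 to 6.27 TPM for Rarb and 2.92 to 3.87 TPM for Rarg).

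The level of Rarg depends on how short transcripts are counted. Its 423-nt transcript Rarg-204 carried 7 counts in replicate 1 and 2 counts in replicate 2, yet took 18.4% and 7.6% of the gene's TPM, because TPM divides by length. The counting intervals given above hold these shares fixed, so for Rarg they are too narrow. Over transcripts of 500 nt or longer, a measure chosen after seeing the data, Rarg stood at 4.09 and 3.12 TPM. In the authors' posterior mean TPM, which gives unread transcripts a small weight, it stood at 8.85 and 7.21 TPM, and the 111-nt transcript Rarg-206, with 0 counts in both libraries, took 39.3% and 46.8% of it. On that scale Rarg lay above Rarb by 0.54 on the log2 scale and beside Rara (8.91 and 8.45 TPM). The counts themselves, 264 and 202 for Rarg, 379 and 403 for Rarb and 518 and 503 for Rara, do not depend on this choice.

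**Figure D2:**
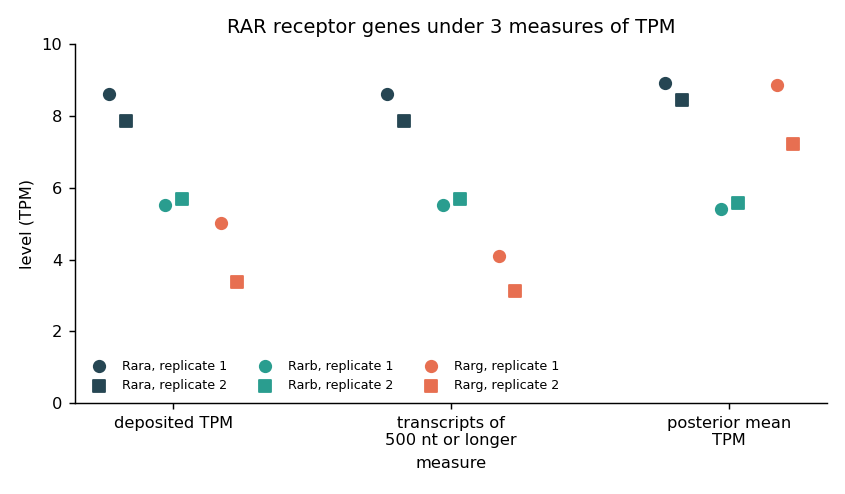
Levels of Rara, Rarb and Rarg in TPM under 3 measures, with circles for replicate 1 and squares for replicate 2: the deposited TPM, the sum over transcripts of 500 nt or longer, and the authors' posterior mean TPM. Rara and Rarb keep nearly the same values under all 3, while Rarg moves between 3.12 and 8.85 TPM.

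Rarg and Rara have transcripts that begin at different starts. For Rarg most reads went to Rarg-202, which begins inside the gene, with 174 of 264 counts in replicate 1 and 160 of 202 in replicate 2. Rarg-201, from the most upstream start, carried 83.2 and 40.4. Their posterior SDs were 17.8 and 18.3 counts in replicate 1 and 13.7 and 15.1 in replicate 2, well under the gap between them. For Rara the leading transcript was Rara-203, from the most upstream start, with 50.2% and 37.7% of TPM. Its 230 and 163 counts had posterior SDs of 34.6 and 31.4. Rara-202, from the most downstream start, took 25.9% and 20.0%. Rara-207 took 7.62% in replicate 1 and 21.8% in replicate 2, above Rara-202 there, but its 46.5 and 125 counts had posterior SDs of 36.5 and 41.3. The lead of Rara-203 in replicate 2 is therefore known only roughly.

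The Rarg start regions are given for the same reason as those of Stra6, as 100 bases before and 30 from each RefSeq start (GRCm38.p6, minus strand, chr15:102246471-102246600 and chr15:102257493-102257622), with the bases from the start on in capitals.
Rarg-202: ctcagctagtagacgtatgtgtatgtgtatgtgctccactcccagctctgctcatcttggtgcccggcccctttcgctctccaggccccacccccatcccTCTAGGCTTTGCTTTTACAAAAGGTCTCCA
Rarg-201: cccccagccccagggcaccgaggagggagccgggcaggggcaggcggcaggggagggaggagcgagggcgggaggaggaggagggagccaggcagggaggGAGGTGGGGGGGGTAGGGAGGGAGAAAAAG

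**Figure D3:**
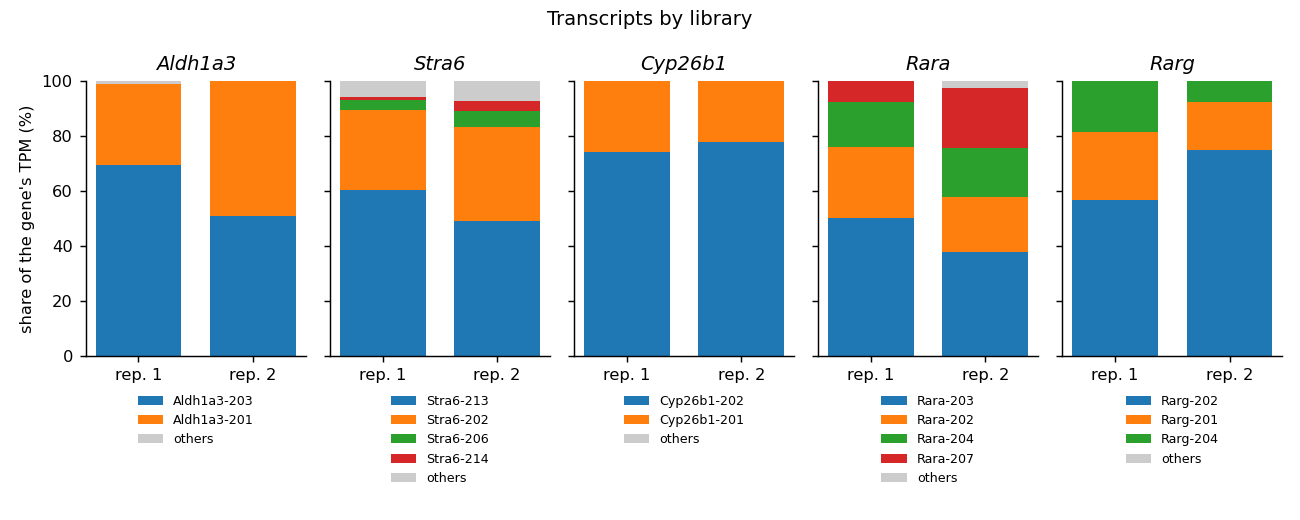
Share of each gene's TPM, in percent, taken by its listed transcripts in replicate 1 and replicate 2, for the 5 genes with several transcripts of measurable share, with transcripts outside the leading ones in grey. By this share the leading transcript, at the bottom of each bar, is the same in both libraries for each gene, and Rarg-202 takes 56.7% and 74.97% of Rarg.

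Rarb is itself a known target of retinoic acid through a response element at its promoter, a direct repeat of a hexamer with a 5-base spacer. Its promoter is given for that reason, as the 250 bases before the RefSeq start (GRCm38.p6, minus strand, chr14:16575477-16575726), with the repeat in capitals.
Rarb: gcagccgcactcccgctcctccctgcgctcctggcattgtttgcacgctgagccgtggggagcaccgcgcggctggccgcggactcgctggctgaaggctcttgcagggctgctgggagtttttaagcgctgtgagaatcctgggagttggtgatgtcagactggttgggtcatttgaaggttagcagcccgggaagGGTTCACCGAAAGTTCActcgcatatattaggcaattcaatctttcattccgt
The repeat lies 53 to 37 bases before that start (16575513 to 16575529), and inside Rarb-201 as GENCODE M21 draws it, whose first base is 16575543. The search took each hexamer as AGGTCA or as AGTTCA, and likewise as GGGTCA or as GGTTCA, on both strands, with spacers of 1, 2 or 5 bases over the 300-base RefSeq windows. A 5-base repeat was in 1 of the 14 windows that 7 of the genes have, some of which overlap, and in 0.0974% of all 32851 windows. That 1 is the known Rarb element, whose hexamers were among those searched, so finding it tests nothing about the genes as a set. Repeats with spacers of 1 or 2 bases were in 0 of the 14, beside 0.222% and 0.268% of all windows. Aldh1a3 and Crabp2 were not searched, and no window lies at the starts of Rara-203 and Rara-202. A match describes letters, not occupancy.

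Rarb carries a limit of its own. Of the 3108 exon bases that GENCODE M21 gives its listed transcript, 1793 overlap exons of the topoisomerase gene Top2b on the opposite strand (16430839 to 16435258), which stood at 91.6 and 96.1 TPM. Whether reads were counted by strand is not given in the sources used here. The authors' posterior SD of the gene count was listed as 0 in both libraries for Rarb, as for the other 8 genes. By that score no reads were split between Rarb and another gene. The transcript the authors quantified was 3034 nt long, so its overlap with Top2b may differ from that in M21.

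Cyp26b1 encodes the retinoic acid hydroxylase of the later embryo and brain (chromosome 6, 84571414 to 84593908). It stood at 15.3 TPM in replicate 1 and 10.2 TPM in replicate 2 (mean 12.8 ± 3.63, SD, n = 2), with counting intervals of 14.6 to 16.1 TPM and 9.61 to 10.8 TPM. The intervals did not overlap, and its SD relative to its mean was the largest of the 9 genes, followed by that of Rarg. Both coding transcripts were found, Cyp26b1-202 with 74.3% and 77.6% of TPM and Cyp26b1-201 with 25.7% and 22.4%. Among the Cyp26 genes it stood nearly alone. Cyp26a1 had 0 counts in both libraries, which allows up to 0.0767 TPM in replicate 1 and 0.0743 TPM in replicate 2 by a limit of 3 counts, and Cyp26c1 had 0 counts and 1 count. Aldh1a2 exceeded Cyp26b1 by 1.29-fold in replicate 1 and 1.68-fold in replicate 2, a log2 difference of 0.56 ± 0.26 (SD, n = 2).

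In order of mean level the genes ran Crabp2, Crabp1, Aldh1a2, Cyp26b1, Stra6, Rara, Rarb, Rarg and Aldh1a3. The library values of Crabp1 and Aldh1a2 overlapped, as did those of Cyp26b1 and Stra6, so neither pair is ordered by these data. The values of the other neighbours did not overlap. The order of Rarb and Rarg is still not settled, as their counting intervals overlapped in replicate 1 and posterior mean TPM reversed it.

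The rest of the pathway was read from lists by role, 58 genes in all, of which 36 were expressed. Among the carriers of retinol, 3 of 7 were expressed, among them Rbp4 and the thyroid hormone and retinol carrier gene Ttr, a strong choroid plexus gene, at 237 and 269 TPM. Lrat, which esterifies retinol for storage, was lowest at 0.13 and 0.25 TPM. Of the enzymes between retinol and retinal 8 of 14 were expressed. Rdh10, known for the first oxidation step in embryos, stood at 7.47 and 6.42 TPM, and Dhrs3, which runs the reverse reaction, at 33.9 and 28.8 TPM. Adh5 was the highest of that list at 160 and 152 TPM and Rdh1, with 0 counts and 1 count, tied with Dhrs9, with 1 count and 0 counts, for the lowest mean. Levels of enzymes do not show their activity.

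Of the receptor partners and other binding proteins 6 of 6 were expressed. Fabp5, which binds fatty acids and can also carry retinoic acid, led them at 745 and 720 TPM, and Ppard had the lowest mean, at 1.21 and 1.28 TPM. Among the RXR receptors Rxrb took 83.7% of the family's TPM in replicate 1 and 83.8% in replicate 2, at 53.0 and 52.1 TPM. Rxrg stood at 6.95 and 7.59 TPM and Rxra at 3.35 and 2.49 TPM. All 9 coregulator genes were expressed, from Ncoa1 at 8.01 and 7.79 TPM to the corepressor gene Ncor1 at 148 and 145 TPM.

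Genes known to respond to retinoic acid fell into high and low members. Of 21 listed, 11 were expressed, among them the homeobox gene Meis2 (71.7 and 61.1 TPM). The others, 8 Hox genes, Cyp26a1 and Stra8, lay between 0 and 0.57 TPM, and 5 of the list were at 0 in both libraries: Cyp26a1, Hoxb1, Hoxb4, Hoxa4 and Stra8. These genes have other regulators too, so their levels are no measure of retinoic acid. Meis2 and the genes without reads were named here after their values were seen.

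**Figure D4:**
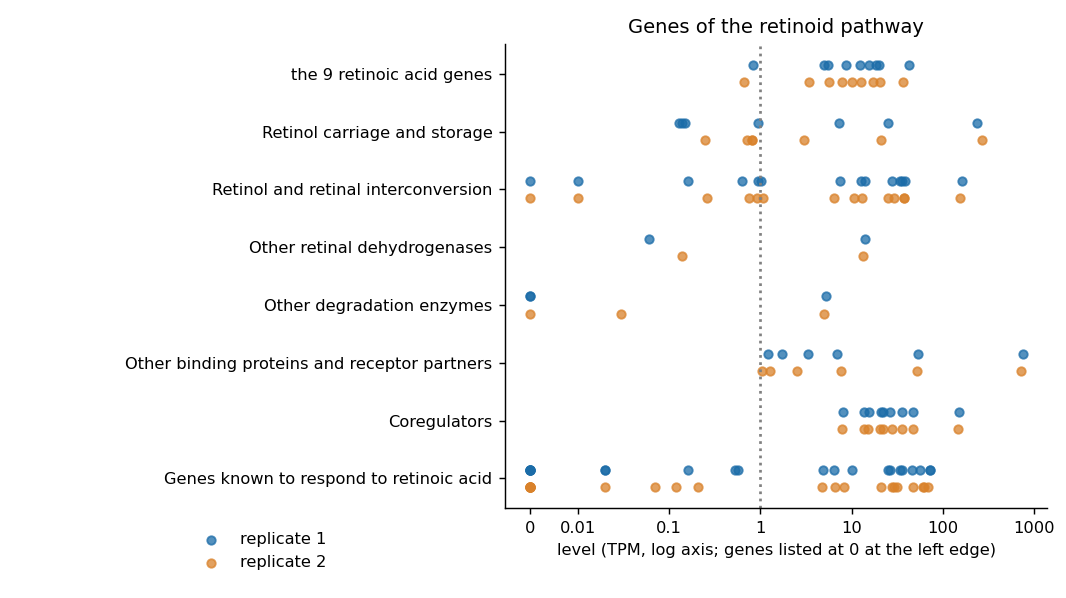
Levels in TPM on a log axis of the 9 retinoic acid genes and of the other pathway genes by role, 1 point per gene and library, with genes listed at 0 drawn at the left edge and 1 TPM dotted. The coregulators lie at 7.79 TPM or more, while the genes known to respond to retinoic acid split into a group at 0.57 TPM or less and a group at 4.70 TPM or more.

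The pools were then compared gene by gene, replicate 1 over replicate 2, with a two-sided exact binomial test on rounded counts and Benjamini-Hochberg adjustment over 18269 genes. This compares the pools themselves, and no other library was at hand to check a difference against. At an adjusted p under 0.05 and a 2-fold difference 0 of the 9 retinoic acid genes passed, beside 1.63% of all genes tested. Without the fold threshold 4 of 9 passed, beside 19.3% of all genes. All 4 were higher in replicate 1. Of all genes that passed at that threshold, 1846 were higher in replicate 1 and 1678 in replicate 2, which is 10.1% and 9.18% of the genes tested. The median absolute log2 ratio was 0.15 over the 9 genes and 0.11 over all genes tested.

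Cyp26b1 showed the widest difference. It had 1653 counts in replicate 1 and 1135 in replicate 2, a ratio of 1.504 (95% counting interval 1.39 to 1.62), with an adjusted p of 3.0e-24 by the exact binomial test. A log2 ratio as large in either direction was found in 8.09% of the genes tested. It was the one gene of the 9 to pass at an adjusted p under 0.05 and 1.5-fold, beside 2.88% of all genes. It was also the only one to pass at an adjusted p under 0.05 when edgeR's exact test allowed for a common spread between the pools (coefficient of variation 0.0651, adjusted p = 0.0057), beside 1.30% of all genes. That spread was estimated from the same 2 libraries.

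Rarg had 264 counts in replicate 1 and 202 in replicate 2, a ratio of 1.35 (1.12 to 1.63, exact binomial adjusted p = 0.011). Crabp2 had 831 and 730 counts, a ratio of 1.18 (1.06 to 1.30, exact binomial adjusted p = 0.011), and Aldh1a2 a ratio of 1.16 (1.06 to 1.27, exact binomial adjusted p = 0.0099). With the common spread, none of these passed in edgeR's exact test (adjusted p = 0.53 for Rarg, 0.98 for Crabp2 and 1 for Aldh1a2). The ratios of Rara (1.06), Aldh1a3 (1.03), Rarb (0.971), Stra6 (0.966) and Crabp1 (0.899) had counting intervals that included 1. The interval of Aldh1a3 was the widest, from 0.641 to 1.66.

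**Figure D5:**
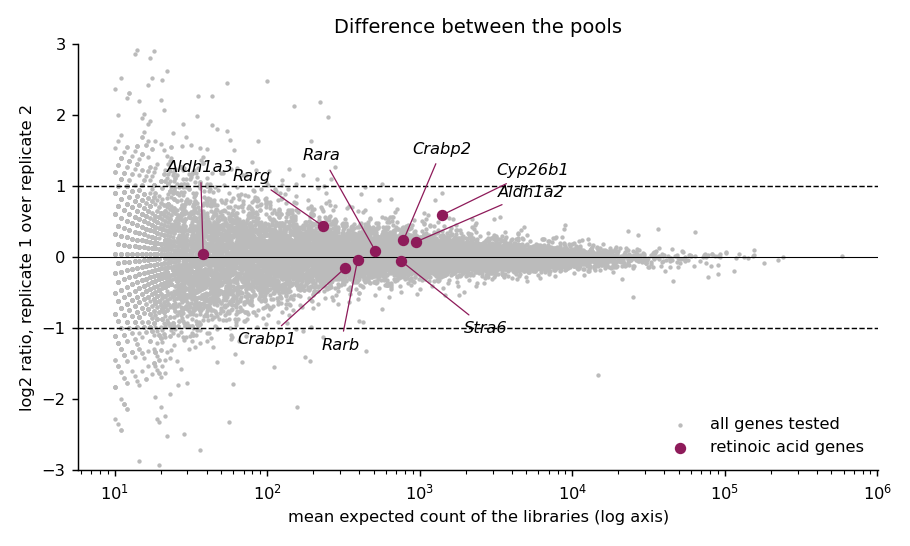
Log2 ratio of replicate 1 over replicate 2 against the mean expected count, for all 18269 genes tested (grey, 68 of them outside the axis) and the 9 retinoic acid genes (purple), with dashed lines at 2-fold. Cyp26b1 and Rarg lie highest among the 9, and all 9 lie between the dashed lines.

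Of the other pathway genes 44 could be tested, and 3 passed at 2-fold, beside 1.63% of all genes tested, all higher in replicate 1: Rbp4 (142 counts in replicate 1 and 63 in replicate 2), Hoxa5 (22 and 1) and Hoxb5 (24 and 3). Without the fold threshold 12 were higher in replicate 1 and 5 in replicate 2, beside 10.1% and 9.18% of all genes, and the median log2 ratio was 0.04. Among the 12 were Dhrs3 (log2 ratio 0.22) and Rxra (0.48).

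Marker lists moved between the pools as well. Of 11 meningeal and fibroblast genes, 7 were higher in replicate 1 without a fold threshold and 0 lower, with 0 at 2-fold and a median log2 ratio of 0.18, beside 0.22 for Aldh1a2 and 0.59 for Cyp26b1. Midbrain transcription factor genes had 4 of 9 higher in replicate 1 and 0 lower (median log2 ratio 0.26), radial glia genes 4 of 6 and 0 (0.15), and dopaminergic neuron genes 0 of 9 higher and 3 lower (-0.21), all without a fold threshold. By the same rule telencephalon genes had 5 of 11 higher and 3 lower, and young neuron genes 2 of 6 and 4. Mural cell genes had 1 of 6 and 1, endothelial genes 1 of 8 and 0, and choroid plexus genes 0 of 7 and 1. Eye genes had 1 of 7 higher and 0 lower, as did muscle and cartilage genes. Of all genes tested, 10.1% were higher in replicate 1 and 9.18% lower. At 2-fold 1 eye gene, Six6 (113 and 46 counts), and 1 muscle gene, Actc1 (1438 and 81 counts), were higher in replicate 1. So was the telencephalon gene Emx1 (88 and 38 counts), with 0 lower in these lists, beside 1.63% of all genes in either direction. Muscle and cartilage genes summed to 79.65 TPM in replicate 1 and 36.57 TPM in replicate 2. Liver genes, a group to which Rbp4 also belongs by its known expression, summed to 24.1 TPM in replicate 1 and 3.89 TPM in replicate 2, with 5 of 6 higher in replicate 1 at 2-fold and none listed at 0. Skin genes, listed because Rarg and Crabp2 are known from skin, went the other way, with 16.0 and 31.9 TPM, 4 of 7 higher in replicate 2 at 2-fold and none listed at 0. Of the 14 Hox genes 3 could be tested, and 2 were higher in replicate 1 at 2-fold, beside 1.63% of all genes in either direction. All 14 summed to 1.93 and 0.75 TPM. The part of these listed genes in the differences of the retinoic acid genes was not tested.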

How the data were processed

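Total RNA was measured in 2 libraries of embryonic midbrain. Per the labels, RNA came from the mirVana kit, was longer than 200 nt, entered at 10 ng and carried spike-ins. The authors deposited expected counts, TPM and FPKM per gene and transcript, with posterior means. Per the file headers, transcripts also have a percent of their gene. The deposited posterior SD of a count is used as a score of read assignment. Per the authors' deposited notes the build was mm10 and the annotation GENCODE M4. Not given in the sources used here are the aligner, the counting tool and the use of strand.

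Symbols were matched by gene ID without version. Coordinates and transcript names come from GENCODE M21 on the same build, in which 39 of 39 transcripts were found, 35 with the same length. Sequences come from RefSeq on GRCm38.p6. Spike-ins took 2.29% and 2.42% of counts and, like 26249 rows without an Ensembl ID (5.5e-05% and 3.0e-05% of counts), entered no test.

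Expected counts were rounded and scaled by TMM (edgeR 4.0.16, R 4.3.3). The test covered genes averaging at least 10 counts, and log2 ratios used 0.5 added to each count. The labels say that the pools were separate biological replicates. Intervals for ratios are exact (Clopper-Pearson). Those for levels scale a gene's TPM by the exact Poisson limits of its total count, with its transcript shares held fixed. They are too narrow where a short transcript with few reads carries much of the TPM, as for Rarg. Both kinds cover counting error only, since PCR copies were not told apart. The test was tried on simulated data with counting noise only, so that trial does not cover further spread between pools. Alternatives were DESeq2 1.42.0 size factors, total and spike-in scaling, other filters and thresholds, other TPM measures, FPKM, and each library alone. FPKM was used only for ranks and for the log2 differences between the RAR receptor genes. Other steps used scipy 1.17.1, pandas 2.3.3 and numpy 2.4.6 in Python 3.11.15, with figures from matplotlib 3.10.9. All 9 genes are named. Other pathway genes are named for the ends of a list or from a fixed set. Some of these are not reported here. The genes and lists were chosen with earlier results of these data known.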

Additional observations from a re-analysis of the deposited data

How the results depend on the processing

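Depth limits Aldh1a3 most, with 38 counts per library. The 8 expressed genes stayed 8 at 2 TPM and in either library alone, and became 9 at 0.5 TPM. Of 27 levels recomputed with both libraries 20 moved by less than the SD between the libraries. The order of the 9 genes by FPKM was that by TPM, which is no check, because the measures are proportional within a library. In posterior mean TPM the log2 difference of Rara over Rarg became 0.12 and that of Rarb over Rarg reversed to -0.54, where the unread 111-nt Rarg-206 takes the largest share of Rarg. Over single libraries Rara over Rarb ranged from 0.46 to 0.64, Rara over Rarg from 0.78 to 1.22 and Rarb over Rarg from 0.14 to 0.76. The count of all genes called, 298, became 67 with a mean of 50 or more counts, 3524 without a fold threshold, 526 at 1.5-fold and 158 with edgeR's common dispersion at 2-fold. Of the 9 genes, 0 became 4 without a fold threshold and 1 at 1.5-fold, and stayed 0 under the other 6 alternatives, of which the filter at 50 counts left 8 genes to test. Spike-in scaling moved the median log2 ratio of all genes by 0.08 and turned the signs of Rarb (0.04) and Stra6 (0.04), neither of which passed. Each of the 6 genes with more than 1 listed transcript had the same leading transcript in both libraries by percent, by counts and by posterior mean percent, although by counts the leader was Aldh1a3-201 for Aldh1a3 and by posterior mean Rarg-206 for Rarg. No paired analysis was possible because there is 1 group of 2 libraries.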
